A study of Homo sapiens with 6 samples.

Results

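The 10 genes described here are targets of the transcription factor NF-kB: the chemokine genes CXCL1, CXCL2, CXCL3, CXCL8 and CCL20, the cytokine genes IL6, IL1B and LIF, and the feedback inhibitor genes TNFAIP3 and NFKBIA. They were chosen by name from the 58174 genes in the table, after its Ensembl identifiers had been paired with symbols, and all 10 were found. RNA sequencing compared AGS cells, an established human gastric adenocarcinoma cell line, after transfection with a control siRNA (si-NC) or with an siRNA against FTO (si-FTO), the gene of an RNA demethylase, to ask which transcripts differ when FTO is depleted. The labels name 3 libraries in each group, made from total RNA with the KAPA stranded kit, and give the genotype of si-NC as "wild type" and that of si-FTO as "FTO-/-", although the sample titles and the methods describe an siRNA. The values used are the authors' means of TPM (transcript abundance scaled for transcript length and library total), 1 per gene and group, so the error between libraries and the sequencing depth are unknown, no test was made, and each difference below is one between 2 means.

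FTO itself had a mean of 33.1 TPM in si-NC against 7.27 TPM in si-FTO, 4.56 times lower, in the direction of the labels. Differences are given as the log2 ratio of si-FTO to si-NC after adding 1 TPM to each mean, a scale that shrinks the change of a gene near 0, and FTO was at -2.05 on it. A gene was compared when its mean was at least 0.5 TPM in 1 group, which 20493 genes reached, and was called higher or lower from a log2 ratio of 1 in size, a 2-fold difference on that scale. The median log2 ratio of those 20493 genes was -0.20, and a median-ratio scaling of the groups, which offsets a shift of -0.21, brought it to -0.02. That shift would raise TNFAIP3 from -0.20 to -0.03 and the median of the IKK and adaptor genes from -0.22 to -0.02, while quantile normalization put TNFAIP3 at 0.13, so neither of these is given a direction.

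The cell type named by the labels was checked against 10 epithelial markers. KRT8 and KRT18, the keratin pair of simple epithelia, had 10.8 and 52.1 TPM in si-NC against 3139 and 1851 TPM in si-FTO. KRT7 was listed at 0 in si-NC and had 253 TPM in si-FTO, and ELF3, an epithelial transcription factor gene, had 0.115 and 93.3 TPM. EPCAM and CDH1, which mark epithelial cell surfaces and junctions, ran the other way, at 1.22 and 3.67 TPM in si-NC and 0.113 and 0.685 TPM in si-FTO. Keratin levels were thus far lower in the group labelled si-NC, where KRT19 was listed at 0 as well (0.130 TPM in si-FTO). Of the 8 markers compared, 6 were called higher in si-FTO (KRT8, KRT18, KRT7, CLDN4, CLDN7 and ELF3; KRT7, CLDN4 and ELF3 passed the filter only through si-FTO) and 1 lower (CDH1), with a median log2 ratio of 3.99 (2.23 over all 10) and summed levels of 69.3 and 5355 TPM, KRT18 the most abundant in si-NC and KRT8 in si-FTO. Across the whole table, 65 genes listed at 0 in si-NC had at least 10 TPM in si-FTO, and 177 genes listed at 0 in si-FTO had at least 10 TPM in si-NC. The groups therefore differed far beyond FTO and the NF-kB genes. FTO itself ran in the direction of the labels, at 33.1 TPM in si-NC against 7.27 TPM in si-FTO. The paper also reports caveolin-1 higher after FTO depletion, by sequencing, qRT-PCR and Western blotting. That sequencing gave the data used here, so it is no separate check of the labels. The qRT-PCR and the blots do not read these columns of means. Whether both groups hold the same cell line, and whether each column of means carries the right label, was not tested and cannot be settled from group means. Every difference below is therefore one between the groups as labelled, and the part of these marker differences in it was not tested. In bulk RNA, fewer cells of a type and less RNA per cell cannot be told apart.

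NF-kB is a family of dimeric transcription factors held in the cytoplasm by IkB proteins. Signals from TNF, IL1 or microbial receptors activate the IKK complex, which marks IkB for degradation, and the freed dimers enter the nucleus and switch on genes of inflammation. Among these are neutrophil-attracting chemokines and cytokines, and also the inhibitors that end the signal, so the pathway writes its own brake, and in gastric epithelium it is known for the response to Helicobacter pylori.

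Of the 10 members, 4 were called higher in si-FTO (CXCL2, IL6, LIF and NFKBIA) and 0 lower, beside 11.4% of all genes compared that were called higher and 17.0% called lower. The other 6 lay between the thresholds. The filter on low values was passed by 7 members, IL6 only through si-FTO and CXCL3 only through si-NC, and CXCL8, CCL20 and IL1B stayed under 0.5 TPM in both groups and so could not be called, while the shares above are of genes that passed. Over all 10 members the median log2 ratio was 0.17. A level of 1 TPM was reached by 3 members in si-NC (CXCL3, TNFAIP3 and NFKBIA) and 5 in si-FTO (CXCL2, IL6, LIF, TNFAIP3 and NFKBIA), and NFKBIA alone made up 72.6% of their summed TPM in si-NC and 73.8% in si-FTO.

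**Figure D1:**
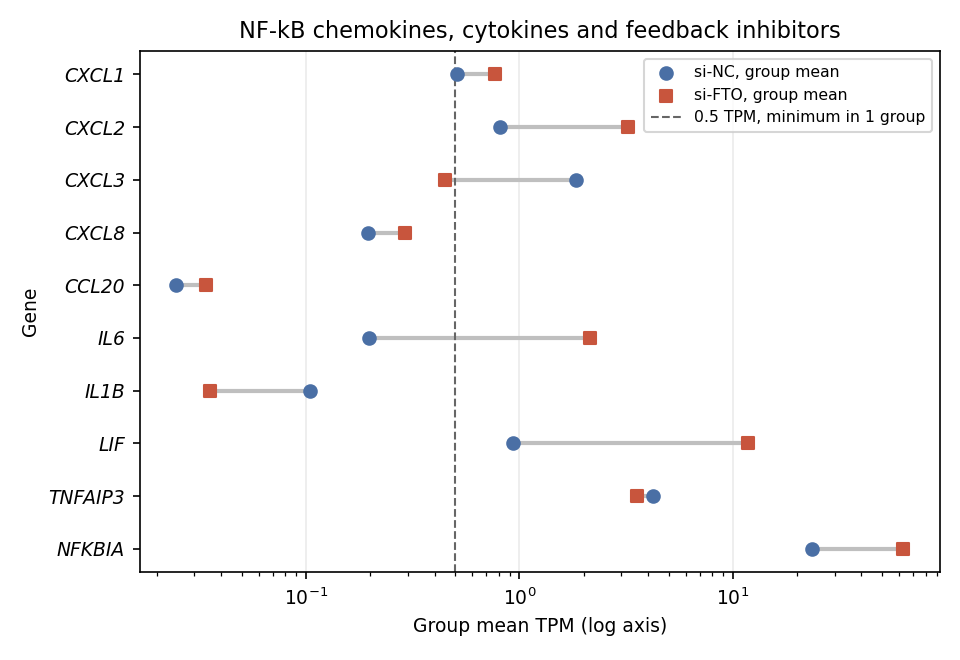
Group mean TPM of the 10 members on a log axis, with circles for si-NC, squares for si-FTO and a dashed line at the minimum of 0.5 TPM. LIF had the widest step upward among the members on the log2 scale used, from 0.933 to 11.8 TPM, and CXCL3 the widest downward, from 1.84 to 0.448 TPM.

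CXCL1, CXCL2, CXCL3 and CXCL8 encode chemokines that draw neutrophils through the receptors CXCR1 and CXCR2. All of them lie in 1 block of chromosome 4 (GRCh37): CXCL8 at chr4:74606236-74609433 and CXCL1 at chr4:74735110-74737025 on the plus strand, CXCL3 at chr4:74902306-74904524 and CXCL2 at chr4:74962757-74964913 on the minus strand, each with 4 exons in its canonical transcript. The bases just before their start sites show how alike CXCL1, CXCL2 and CXCL3 are there, with CXCL8 set beside them. Each line runs 5′ to 3′ on the gene's strand, from 110 bases to 1 base before the RefSeq start site, and capitals mark matches to GGAATTTCC or to the kappaB consensus, the letters known as NF-kB binding sites.
CXCL1: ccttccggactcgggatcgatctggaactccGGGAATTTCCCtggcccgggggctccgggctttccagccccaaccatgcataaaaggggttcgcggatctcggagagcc
CXCL2: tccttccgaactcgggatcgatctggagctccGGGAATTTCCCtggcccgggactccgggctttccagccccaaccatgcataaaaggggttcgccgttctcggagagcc
CXCL3: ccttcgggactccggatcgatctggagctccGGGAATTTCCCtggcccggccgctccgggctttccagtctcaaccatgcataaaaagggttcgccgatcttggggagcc
CXCL8: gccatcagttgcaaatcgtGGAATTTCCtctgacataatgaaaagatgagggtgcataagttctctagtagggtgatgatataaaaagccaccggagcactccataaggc
The RefSeq promoter table (GRCh38.p14) held 9 of the 10 members, LIF being the other, and the sequences shown matched GRCh37 exactly at chr4:74735000-74735109, chr4:74964913-74965022, chr4:74904407-74904516 and chr4:74606176-74606285. Within 30 bases around the match, CXCL1 and CXCL2 shared 28 bases, CXCL2 and CXCL3 shared 28, and CXCL1 and CXCL3 shared 27. A match is a description of letters and not of a bound site.

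With these shared letters before them, CXCL1, CXCL2 and CXCL3 differed between the groups in different ways. CXCL1 (ENSG00000163739) had 0.509 TPM in si-NC against 0.768 TPM in si-FTO, for a log2 ratio of 0.23. CXCL2 (ENSG00000081041) had 0.807 and 3.23 TPM, 4.0 times higher in si-FTO, with a log2 ratio of 1.23. CXCL3 (ENSG00000163734) had 1.84 and 0.448 TPM, the latter under the filter, with a log2 ratio of -0.97 that was not called. With 0.1 TPM added in place of 1 TPM the ratio was -1.82 and CXCL3 was the 1 member called lower, beside 25.1% of genes compared called lower on that scale and 16.0% called higher, so its call depends on the value added. CXCL3 was thus the leading transcript of the 3 in si-NC, with 58.3% of their summed TPM, and CXCL2 in si-FTO, with 72.7%. Their sum differed less than CXCL2 or CXCL3 did, at 3.15 TPM in si-NC against 4.45 TPM in si-FTO, 1.41 times higher.

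Reads from these genes could have been split between them, so their separate values are uncertain. Of the 50-base words in the canonical CXCL2 transcript, 10.1% also stood in a transcript of CXCL1, CXCL3 or CXCL8. The share was 5.33% for CXCL1, 5.26% for CXCL3 and 0% for CXCL8. At 75 bases it was 2.50% for CXCL2 and 2.30% for CXCL3, so most of each transcript was distinct at these lengths.

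CXCL8 (ENSG00000169429), which encodes interleukin 8, had 0.195 TPM in si-NC against 0.290 TPM in si-FTO. CCL20 (ENSG00000115009), on chromosome 2 and encoding the ligand of CCR6, had 0.0246 and 0.0340 TPM, the lowest level of the 10 in both groups. Both genes were under the filter in both groups and are given no fold. Around the members on chromosome 4, between the outer ends of CXCL8 and CXCL2, CXCL6 had 0.616 TPM in si-NC and PF4 had 0.420 TPM, both listed at 0 in si-FTO, and CXCL5, PPBP and PF4V1 were listed at 0 in both groups. CXCL2 was therefore the one chemokine of this block with more than 1 TPM in si-FTO, and CXCL3 the one with more than 1 TPM in si-NC. The genes of the block outside the lists (PF4, PPBP and PF4V1) were chosen for their position after the values were seen.

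Other chemokine and cytokine genes that NF-kB is known to drive were read next. Of 26 listed, 13 were under the filter in both groups and 13 were compared, with 6 called higher, 1 lower and a median log2 ratio of 0.79, against 0.03 over all 26. Without the 2 compared genes listed at 0 in 1 group the median was 2.01, and with 0.1 TPM added in place of 1 TPM it was 2.62, so its size depends on these choices. Of the 6 called higher, 4 passed the filter only through si-FTO, where they had to be higher. Among all 13, 7 passed only through si-FTO and 2 only through si-NC, and IL11, whose ratio is the median of the 13, is 1 of those 7. CXCL16, a membrane-anchored chemokine, was the most abundant in si-FTO, with 7.31 TPM in si-NC against 48.3 TPM in si-FTO. The monocyte chemokine gene CCL2 had 0.0552 and 6.27 TPM, and the T cell chemokine gene CCL5 had 0.0243 and 3.13 TPM. These 2 were among those 4, as was TNFSF10, the gene of the death ligand TRAIL, at 0.0408 and 11.6 TPM. IL32 had 0.950 and 28.9 TPM, and IL18, an IL1 family cytokine gene and the last of the 4, had 0.260 and 30.3 TPM. TSLP, an epithelial alarmin that passed only through si-NC, was the 1 called lower, with 2.42 TPM in si-NC against 0.0497 TPM in si-FTO. CSF1 was the most abundant gene listed here in si-NC, at 7.85 TPM, and had 6.05 TPM in si-FTO. TNF, the classical inducer of the pathway, had 0.0232 TPM in si-NC but was listed at 0 in si-FTO, and CXCL5, CXCL10 and CSF3 were listed at 0 in both groups.

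IL6 and LIF, which encode cytokines that signal through the shared receptor chain gp130, were both called higher in si-FTO. IL6 (ENSG00000136244, chr7:22765503-22771621, plus strand, 5 exons) had 0.198 TPM in si-NC against 2.15 TPM in si-FTO, with a log2 ratio of 1.39, and is given no fold because its si-NC level was under the filter. LIF (ENSG00000128342, chr22:30636442-30642748, minus strand, 3 exons) had 0.933 and 11.8 TPM, 12.6 times higher, with a log2 ratio of 2.73 that was above those of 97.1% of the genes compared. LIF made up 20.2% of the summed TPM of the 8 secreted members in si-NC and 62.9% in si-FTO, so most of the secreted members' transcripts in si-FTO were LIF. The promoter of IL6 is shown because IL6 was called higher together with CXCL2 and NFKBIA; its kappaB letters begin 73 bases before the start site, at chr7:22766709-22766818 for the whole stretch.
IL6: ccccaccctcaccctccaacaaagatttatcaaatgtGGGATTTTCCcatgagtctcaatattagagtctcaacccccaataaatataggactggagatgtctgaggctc
Strand use in counting is not given in the sources used here, so antisense genes are set beside both cytokines. STEAP1B, which overlaps IL6 on the opposite strand, had 7.43 TPM in si-NC but was listed at 0 in si-FTO, the reverse of IL6. IL6-AS1 was listed at 0 in si-NC and had 0.0765 TPM in si-FTO. LIF-AS1 had 0.0518 TPM in si-NC but was listed at 0 in si-FTO, and LIF-AS2 had 0.219 and 0.648 TPM. In si-FTO, none of these antisense genes reached the level of the cytokine gene it overlaps, but in si-NC STEAP1B was far above IL6 at 0.198 TPM, and the part of antisense reads in the IL6 and LIF values was not tested.

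Some receptor and response genes of IL6 and LIF were called higher in si-FTO and none was called lower. LIFR, the LIF receptor chain, had 8.08 TPM in si-NC against 42.5 TPM in si-FTO. IL6R had 3.68 and 10.3 TPM, and IL6ST, the gene of gp130, had 14.0 and 19.0 TPM, so both ligand-specific chains were called higher and the shared chain was not, at a log2 ratio of 0.41. OSMR, the oncostatin M receptor chain that also pairs with gp130, had 0.807 and 60.9 TPM. SOCS3, the feedback inhibitor that STAT3 switches on, had 1.08 TPM in si-NC against 112 TPM in si-FTO, for a log2 ratio of 5.76. STAT3 had 31.8 and 118 TPM, PIM1 had 18.5 and 53.0 TPM, and BCL6 had 5.94 and 18.2 TPM. The list of 11 response genes also holds the kinase genes JAK1, JAK2 and TYK2 and the receptor gene OSMR, so its count does not measure a response alone. In all, 5 of the 11 were called higher (OSMR, SOCS3, STAT3, PIM1 and BCL6) and 0 lower, with a median of 0.91. Of all genes compared, 11.4% were called higher and 17.0% lower. The kinase gene TYK2, the most abundant gene listed here in si-NC, had 79.8 and 69.2 TPM, and SOCS1 had 0.734 and 0.443 TPM. Of the 2 SOCS genes, SOCS3 alone was therefore called.

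**Figure D2:**
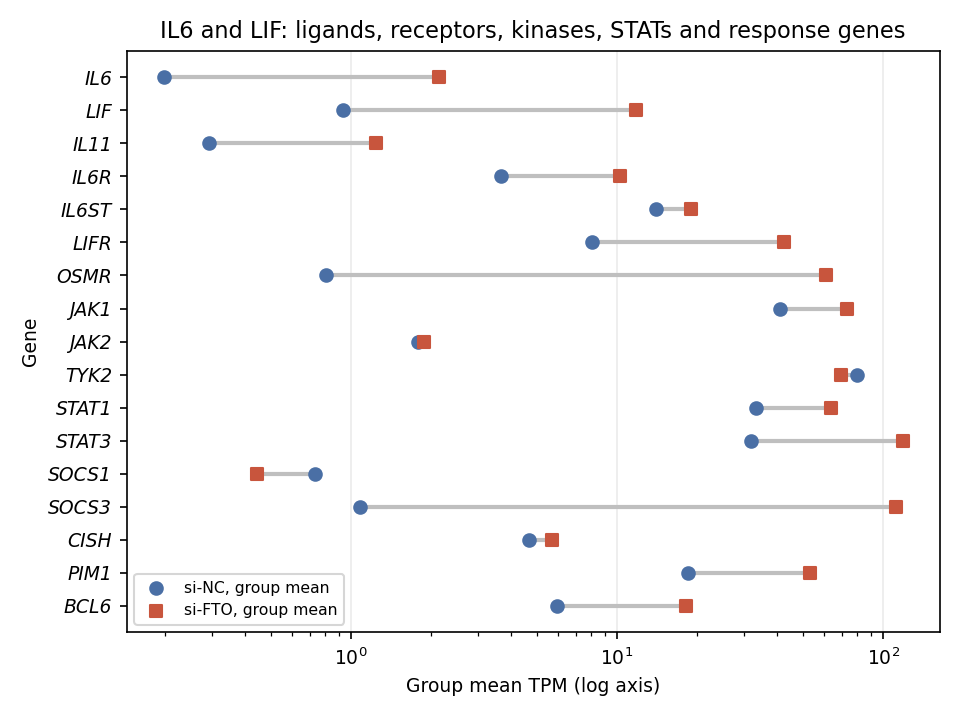
Group mean TPM on a log axis of IL6, LIF and IL11 with their receptor chains, kinases, STATs and response genes, with circles for si-NC and squares for si-FTO. SOCS3 (1.08 to 112 TPM) and OSMR (0.807 to 60.9 TPM) had the widest steps, and JAK2 had 1.78 and 1.88 TPM.

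Among the receptors of the members' products, 5 of 11 were compared, 2 were called higher (LIFR and IL6R) and 0 lower, with a median of 0.62, against 0 over all 11. IL6ST was the most abundant of them in si-NC and LIFR in si-FTO. The chemokine receptor genes were near absent, with CXCR1 and ACKR1 listed at 0 in both groups, CXCR2 at 0.0118 TPM in si-NC, listed at 0 in si-FTO, and CCR6 at 0.0892 and 0.147 TPM. At the RNA level these cells thus carried receptors for the cytokines and hardly any for the chemokines. IL1RN, the gene of the IL1 receptor antagonist, was listed at 0 in both groups.

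IL1B (ENSG00000125538, chr2:113587328-113594393, minus strand, 7 exons) encodes a pro-cytokine that caspase 1 cleaves. It had 0.104 TPM in si-NC against 0.0354 TPM in si-FTO, under the filter in both. Several genes of a list named here for IL1B processing, which also holds sensor genes and a pore protein gene, were high in si-FTO. CASP1 was listed at 0 in si-NC and had 22.0 TPM in si-FTO, CASP4 was listed at 0 and had 50.6 TPM, and GSDMD, the gene of the pore protein gasdermin D, had 0.0124 and 11.9 TPM. NLRP1, an inflammasome sensor gene, ran the other way, with 11.1 TPM in si-NC against 0.103 TPM in si-FTO. Of the 10 genes in that list, 5 were compared, with CASP1, CASP4 and GSDMD called higher and NLRP1 lower. The median was 3.68, but 0.90 without the 2 genes listed at 0 in si-NC and 0.07 over all 10. The 3 called higher passed the filter only through si-FTO, and NLRP1 only through si-NC. CASP8 was the most abundant in both groups, at 28.0 and 53.2 TPM. The adaptor gene PYCARD was listed at 0 in si-NC and had 0.0237 TPM in si-FTO, while AIM2 and CASP5 were listed at 0 in both. CASP1 and CASP4 thus stood at high levels in si-FTO beside hardly any IL1B, and IL18, the gene of another substrate of caspase 1, was high in that group as well, at 30.3 TPM.

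**Figure D3:**
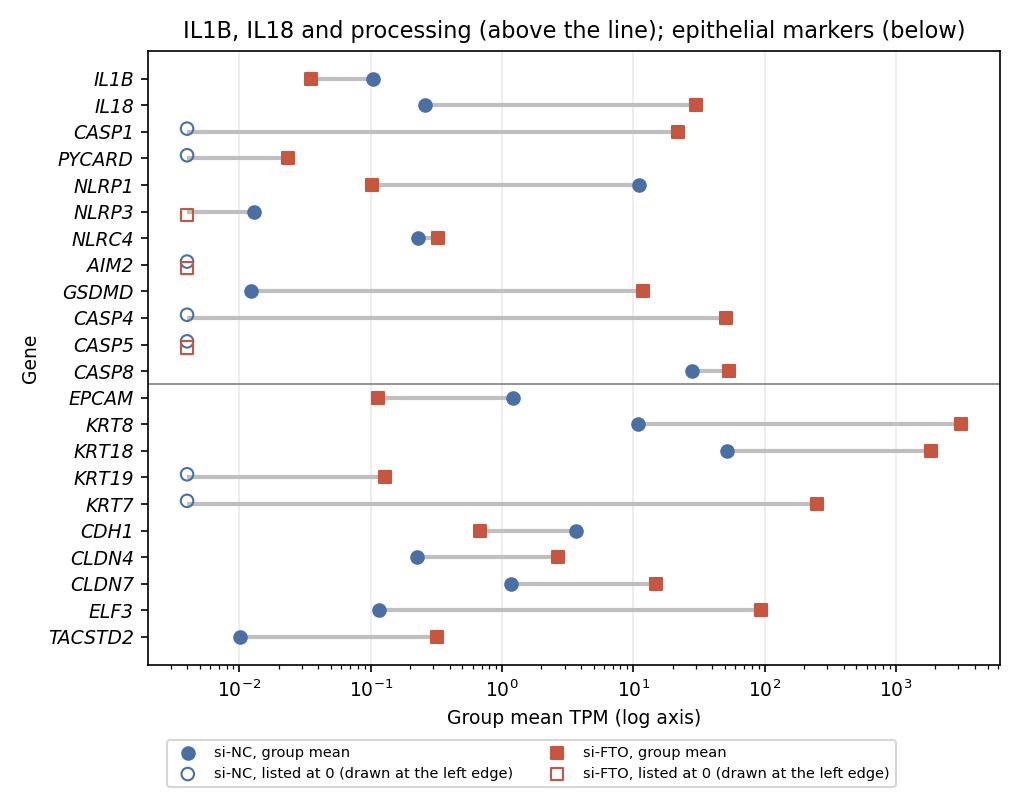
Group mean TPM on a log axis of IL1B, IL18 and the IL1B processing genes (above the line) and of the 10 epithelial markers (below it), with circles for si-NC, squares for si-FTO and open symbols at the left edge for genes listed at 0. CASP1, CASP4 and KRT7 were listed at 0 in si-NC and had 22.0, 50.6 and 253 TPM in si-FTO, while CDH1 and EPCAM were lower in si-FTO.

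Of the feedback inhibitors among the members, NFKBIA was called higher in si-FTO and TNFAIP3 was not called. NFKBIA (ENSG00000100906, chr14:35870285-35873955, minus strand, 6 exons) encodes IkB alpha, which binds the RELA and p50 dimer and keeps it out of the nucleus. It had 23.4 TPM in si-NC against 62.9 TPM in si-FTO, 2.68 times higher, with a log2 ratio of 1.39. TNFAIP3 (ENSG00000118503, chr6:138188351-138204451, plus strand, 9 exons) encodes A20, a ubiquitin-editing enzyme that acts upstream of IKK. It had 4.22 and 3.54 TPM, and the overlapping antisense gene WAKMAR2 had 0.335 and 0.222 TPM. Both promoters held kappaB letters, 1 stretch in NFKBIA and 2 in TNFAIP3, shown at chr14:35873956-35874065 and chr6:138188286-138188395 because the same kind of letters stood before a gene that was called and one that was not.
NFKBIA: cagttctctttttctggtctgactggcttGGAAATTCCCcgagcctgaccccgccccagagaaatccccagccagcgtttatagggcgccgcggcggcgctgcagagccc
TNFAIP3: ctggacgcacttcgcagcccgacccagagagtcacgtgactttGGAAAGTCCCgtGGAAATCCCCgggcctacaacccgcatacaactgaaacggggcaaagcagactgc
In NFKBIA the match to GGAATTTCC was on the opposite strand, starting 81 bases before the start site. In TNFAIP3 the stretches began 67 and 55 bases before it.

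NFKBIB and NFKBIE, the other cytoplasmic IkB genes listed, did not follow NFKBIA. NFKBIB had 41.5 TPM in si-NC against 20.8 TPM in si-FTO, for a log2 ratio of -0.97, and NFKBIE had 9.42 and 3.34 TPM, called lower at -1.26. NFKBIA was thus 31.5% of the summed TPM of these 3 genes in si-NC and 72.3% in si-FTO, while the sum itself was 74.4 and 87.0 TPM. The make-up of the IkB transcripts thus differed more than their sum, with NFKBIB leading in si-NC and NFKBIA in si-FTO. Of the nuclear IkB relatives, which work with NF-kB subunits at promoters, BCL3 had 3.45 and 51.7 TPM and NFKBIZ had 4.77 and 26.2 TPM, both called higher, while NFKBID had 7.57 and 8.84 TPM and was not called.

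In the whole list of other feedback inhibitors, 15 of 16 genes were compared, 4 were called higher (BCL3, NFKBIZ, ZC3H12A and BIRC3) and 1 lower (NFKBIE), with a median of 0.20 (0.16 over all 16). ZC3H12A, which encodes an RNase that degrades cytokine mRNAs, had 9.65 TPM in si-NC against 32.6 TPM in si-FTO. BIRC3, which encodes a ubiquitin ligase of the TNF receptor complex and passed the filter only through si-FTO, had 0.218 and 2.56 TPM. TNIP1, a partner of A20 and the most abundant gene of the list in both groups, had 65.0 and 58.2 TPM, so neither A20 nor this partner was called.

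**Figure D4:**
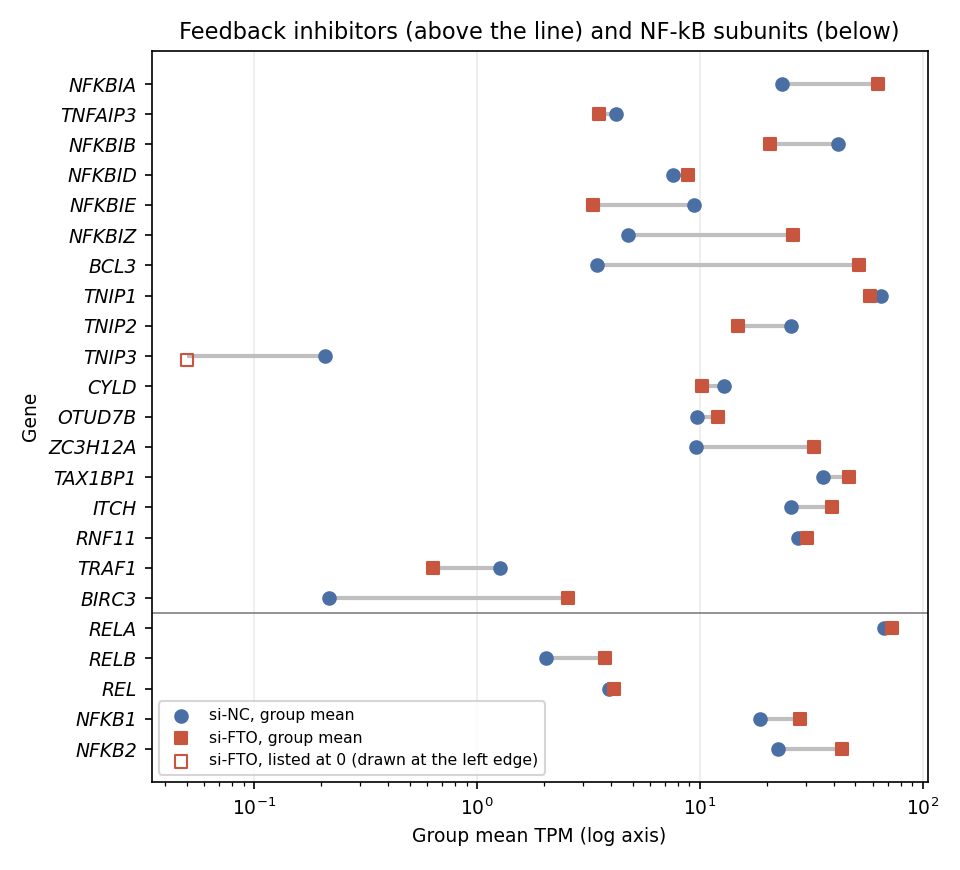
Group mean TPM on a log axis of the feedback inhibitors (above the line) and the NF-kB subunits (below it), with circles for si-NC, squares for si-FTO and an open square at the left edge for TNIP3, listed at 0 in si-FTO. NFKBIA was the lower of the pair NFKBIA and NFKBIB in si-NC (23.4 and 41.5 TPM) and the higher in si-FTO (62.9 and 20.8 TPM).

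None of the 5 subunit genes was called, and the median of their log2 ratios was 0.56. RELA, the most abundant in both groups, had 67.4 TPM in si-NC against 73.1 TPM in si-FTO. NFKB2, the p100 gene and itself a target of the pathway, had 22.5 and 43.3 TPM, a log2 ratio of 0.91, and NFKB1 had 18.7 and 28.1 TPM. RELB had 2.04 and 3.75 TPM and REL had 3.92 and 4.14 TPM. The ratio of NFKBIA to RELA was 0.348 in si-NC against 0.860 in si-FTO, so the inhibitor transcript was closer to the level of its main partner in si-FTO.

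Of 26 IKK and adaptor genes, all compared, 2 were called higher and 1 lower. IRAK1, an IL1 receptor kinase gene and the most abundant in both groups, was the lower one, at 262 and 106 TPM. MYD88, the adaptor of IL1 and Toll-like receptors, had 4.97 and 15.2 TPM, and CARD10, a scaffold of the BCL10 and MALT1 complex, had 13.8 and 54.4 TPM. The kinase genes of IKK itself were not called: CHUK had 46.2 and 23.3 TPM and IKBKB had 30.5 and 25.0 TPM.

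The upstream receptors were divided. Of 22 listed, 19 were compared, 6 were called higher and 3 lower, with a median of 0.17 that turned to -0.14 over all 22, so the list is given no direction. TNFRSF1A, the main TNF receptor gene and the most abundant in both groups, had 34.0 TPM in si-NC against 127 TPM in si-FTO. LTBR had 20.8 and 107 TPM, TNFRSF12A had 16.0 and 70.6 TPM, and IL17RC had 7.64 and 37.1 TPM. TNFRSF1B and TLR3 passed the filter only through si-FTO, at 0.0516 and 1.69 TPM and at 0.112 and 2.03 TPM. The lower ones were TNFRSF11A, the gene of RANK, at 5.88 and 0.660 TPM, and CD40 and IL18R1, at 3.62 and 3.76 TPM in si-NC, both listed at 0 in si-FTO and passing the filter only through si-NC. Receptors of TNF family ligands thus stood on both sides.

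A list of other genes that NF-kB is known to drive was read beside the members. This list, like the others, was chosen with earlier results of these data known. Of 23 listed, 22 were matched to a symbol (SOD2 was not analysed here) and 19 were compared. Of these, 16 were called higher and 1 lower, beside 11.4% and 17.0% of all genes compared. The median log2 ratio was 2.71, against 2.53 over all 22. ICAM1, MMP9, SAA1 and LCN2, 4 of the 16, passed the filter only through si-FTO, and PTX3, the lower one, only through si-NC. The complement gene C3 had 1.89 TPM in si-NC against 272 TPM in si-FTO. ICAM1, an adhesion molecule for leukocytes, had 0.437 and 39.4 TPM, and TNFAIP2 had 0.664 and 55.8 TPM. EFNA1, the most abundant gene listed here in both groups, had 15.9 and 468 TPM. Prostaglandin synthesis was represented by PTGS2, at 0.611 and 12.9 TPM, and PTGES, at 5.91 and 128 TPM. CD83 had 7.88 and 107 TPM, IER3 had 14.3 and 89.4 TPM, CFB had 1.07 and 21.3 TPM, and PLAU had 2.02 and 18.7 TPM. The acute phase gene SAA1 had 0.0236 and 4.77 TPM, and LCN2 was listed at 0 in si-NC and had 9.31 TPM in si-FTO. The remaining genes called higher were MMP9, IRF1, GADD45B and SDC4, with log2 ratios from 1.01 for MMP9 and GADD45B to 1.24 for IRF1. PTX3 was at 1.37 TPM in si-NC, listed at 0 in si-FTO, and BCL2A1 was listed at 0 in both groups. TNFAIP8 and HIVEP2 were compared and not called, at log2 ratios of 0.99 and -0.62, and VCAM1 and SAA2 were under the filter.

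**Figure D5:**
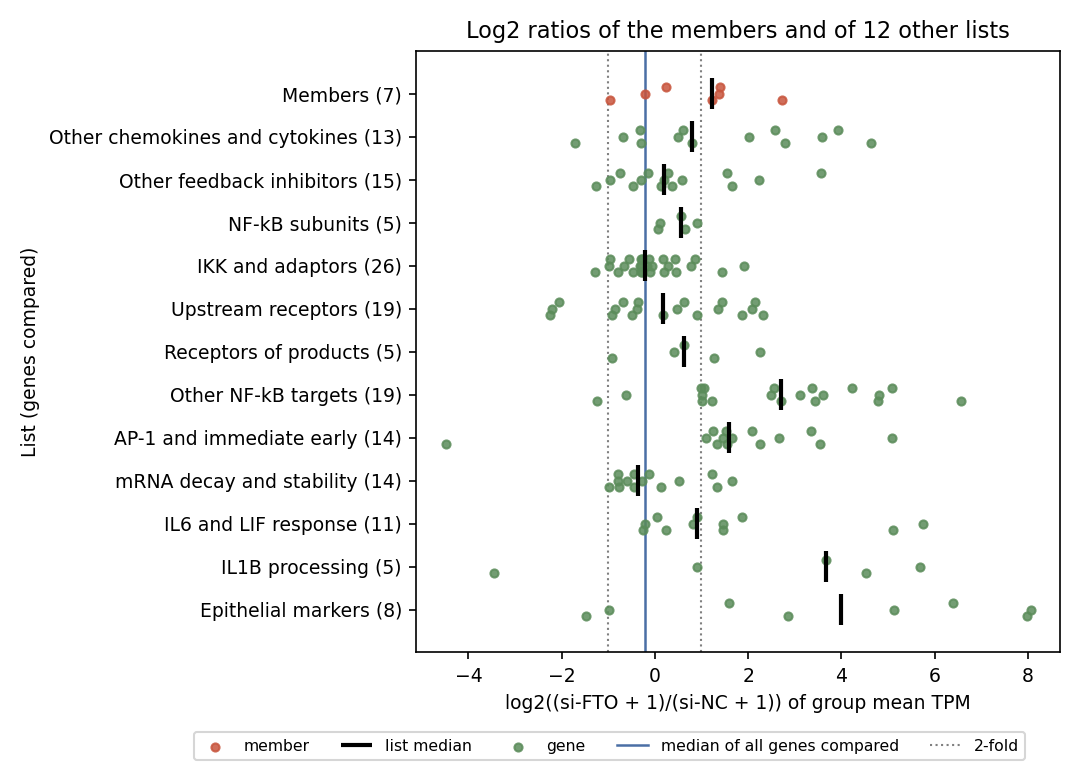
Log2 ratio of si-FTO to si-NC (group mean TPM plus 1) for each gene compared in the members and 12 other lists, with 1 point per gene, black bars for list medians, a blue line for the median of all genes compared and dotted lines at a 2-fold difference. The members that passed the filter span -0.97 to 2.73, the other NF-kB targets have a median of 2.71, and the IKK and adaptor genes lie around the blue line.

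AP-1, the dimer of FOS and JUN family proteins, acts beside NF-kB at several of these promoters, and its genes were read for that reason. Of 14 AP-1 and immediate early genes, 13 were called higher and 1 lower, with a median of 1.60. FOS had 25.0 TPM in si-NC against 888 TPM in si-FTO. JUN, in contrast, had 190.5 and 7.55 TPM, the most abundant gene of the list in si-NC and among its 2 lowest in si-FTO. JUNB had 27.8 and 337 TPM, and DUSP1, a phosphatase gene of MAP kinases, had 58.9 and 610.0 TPM. The rest of the list sided with FOS. JUND, FOSB, FOSL1, FOSL2, DUSP5 and IER2 were called higher, with log2 ratios from 1.10 for DUSP5 to 1.65 for FOSL1. CEBPB, which works with NF-kB at the IL6 and CXCL8 promoters, had 21.9 and 108 TPM, and CEBPD had 4.01 and 30.5 TPM. ATF3 had 26.8 and 118 TPM and EGR1 had 88.0 and 259 TPM. The AP-1 transcripts were thus led by JUN in si-NC and by FOS in si-FTO. The AP-1 letters TGANTCA, searched on both strands, stood in the 250 bases before the start site of CXCL8 alone among the 9 members with a promoter, and in 6.57% of all 35116 promoters.

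What the members share in sequence was counted in the same 250 bases. The kappaB consensus, searched on both strands, was found in 7 of the 9 members (CXCL1, CXCL2, CXCL3, CCL20, IL6, TNFAIP3 and NFKBIA) and in 9.96% of all promoters. The letters GGAATTTCC, which overlap the consensus in CXCL1, CXCL2, CXCL3 and NFKBIA, were found in those genes and in CXCL8, 5 of 9, and in 0.413% of all promoters. IL1B held neither. The kappaB consensus thus stood before the called members CXCL2, IL6 and NFKBIA and also before CXCL1, CCL20 and TNFAIP3, which were not called, and CXCL3, whose call depends on the value added.

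Cytokine mRNAs are also known for AU-rich elements in their 3′ untranslated regions, where decay factors bind. The letters ATTTA were counted in the 3′ untranslated region of the canonical transcript of 19032 genes, and all 10 members held at least 1, beside 68.8% of genes. The longer form TTATTTATT was found in 7 of 10 members, beside 8.58% of genes. It was found 5 times in CXCL2, 3 times in CXCL1 and 1 time in CXCL3, and not in CCL20, IL6 or NFKBIA. Per kilobase, IL6 held 14.1 ATTTA and CXCL2 held 14.0, against a median of 1.56 over genes, while LIF held 2.19 and TNFAIP3 2.51. NFKBIA held 6.0, so of the members called higher LIF alone lay near the median of all genes, and members not called, such as CXCL3 at 10.4 and IL1B at 9.84, were dense too.

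Genes of mRNA decay and stability were read as 1 list, of which some bind these elements and others, such as ZC3H12A and the deadenylase subunit genes, act in other ways. Of 14 listed, all were compared, 3 were called higher (ZFP36, ZFP36L1 and ZC3H12A) and 0 lower, with a median of -0.36. ZFP36, the gene of tristetraprolin, had 5.06 TPM in si-NC against 14.2 TPM in si-FTO, and ZFP36L1 had 12.9 and 31.8 TPM. KHSRP, the most abundant in both groups, had 682 and 345 TPM, a log2 ratio of -0.98.

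Markers of other cell types that make these cytokines were read in the same table. PTPRC, the pan-leukocyte gene, and the lymphocyte genes CD2 and MS4A1 were listed at 0 in both groups. Of 12 leukocyte markers, 2 were compared and 1 was called higher, the lysosomal gene CD68, the most abundant gene listed here in both groups, at 1.49 TPM in si-NC against 6.42 TPM in si-FTO, and the list had a median of 0.59 (-0.01 over all 12) and summed to 3.08 and 7.31 TPM. The fibroblast list of 8 had 6 compared, 2 called higher (COL1A1 and PDGFRB) and 2 lower (COL3A1 and PDGFRA), 3 of them (PDGFRB, COL3A1 and PDGFRA) passing the filter only through the group where they were higher, with a median of 0.26 (0.05 over all 8) and sums of 17.0 and 45.6 TPM. COL1A1 was its most abundant gene in both groups, at 10.3 and 36.4 TPM, and PDGFRB had 0.370 and 5.34 TPM. COL3A1 had 2.18 and 0.361 TPM, and PDGFRA had 1.03 TPM in si-NC but was listed at 0 in si-FTO. Of 6 endothelial markers, 5 were matched (PECAM1 was not analysed here) and 1 was compared, only through si-FTO: CDH5, at 0.00827 TPM in si-NC against 40.9 TPM in si-FTO, with a log2 ratio of 5.38, a median of 0.03 over the 5 matched, sums of 0.685 and 41.3 TPM and KDR the most abundant in si-NC. Under the filter, VWF, another defining endothelial gene, had 0.00493 and 0.0537 TPM, and KDR ran the other way, with 0.401 TPM in si-NC but listed at 0 in si-FTO. CD14, the other leukocyte marker compared, had 0.631 and 0.249 TPM and was not called, and CD79A, under the filter, had 0.376 and 0.131 TPM. The part of the single genes COL1A1, PDGFRB, CD68 and CDH5 in the member results was not tested.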

How the data were processed

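Total RNA was extracted with Trizol, and 6 libraries, 3 from each group, were sequenced after preparation with a KAPA stranded kit. The study's methods name Bowtie and RSEM, the submitters' processing notes name HISAT2, and both name hg19. Which of these tools made the values, their versions, the annotation and the use of strand are not given in the sources used here. The deposited TPM values are the authors' group means, and TPM keeps no depth. The authors' table also holds their fold changes, p-values and q-values, and these columns were not used.

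A value of 0.0001 was read as listed at 0. Symbols were matched to 55726 of 58174 identifiers. Log2 ratios used a pseudocount of 1 TPM, a minimum mean of 0.5 TPM in 1 group and a call at a log2 ratio of 1 in size, and the steps were tested on simulated data. The calculations used Python 3.11.15, numpy 2.4.6, pandas 2.3.3 and matplotlib 3.10.9. The members and the 15 lists beside them were chosen with earlier results of these data known. Genes named were the members, FTO, and in each list every gene with at least 1 TPM in 1 group that was called, the most abundant gene in each group and the genes listed at 0 in both groups. Other list genes named (among them TNF, IL6ST, SOCS1, JAK2, IL11, CHUK, IKBKB, NFKBIB, NFKBID, CXCL6, CXCR2, CCR6, PYCARD, EPCAM, KRT19, CD14, CD79A, VWF, TNIP3 and the subunits) and the antisense genes were chosen after their values were seen. Motifs were counted in the 250 bases before RefSeq start sites, and 3′ untranslated regions of at least 50 bases came from GENCODE on GRCh37, the build that hg19 also names. Alternatives were another pseudocount, other filters, thresholds and scalings, and 0.0001 kept as the value.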

Additional observations from a re-analysis of the deposited data

How the results depend on the processing

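The count of 4 members called higher did not change with a pseudocount of 0.1, with no filter or with 0.0001 kept as the value. It also stayed at 4 with median-ratio scaling and with quantile normalization. IL6, 1 of the 4, passed the main filter only through si-FTO. The share of all genes compared that were called higher was 11.4% in the main setting, 16.0% with a pseudocount of 0.1 and 4.02% with no filter. With either scaling that share was 13.6%. The count of members called higher was 2 with a minimum of 5 TPM, which only LIF and NFKBIA passed, beside 13.3% of genes. At a 4-fold threshold it was 1 (LIF), beside 4.76% of genes. The count of members called lower became 1 (CXCL3) with a pseudocount of 0.1 and at a 1.5-fold threshold, where 25.1% and 31.2% of genes compared were called lower. The median of the members that passed, 1.23, was 0.17 with no filter, where all 10 enter, and 2.06 with a minimum of 5 TPM. With a pseudocount of 0.1, the medians were 2.62 for the other chemokines and cytokines, 3.75 for the other NF-kB targets, 6.74 for the IL1B processing genes and 8.57 for the endothelial markers, the last resting on CDH5 alone; genes near 0 in 1 group count for more on that scale. Turned back from log2 ratios into folds, the other list medians moved by less than 1.5-fold with that pseudocount and with median-ratio scaling. As log2 ratios, the fibroblast median went from 0.26 to 0.80 and that of the receptors of the products from 0.62 to 1.04 with that pseudocount. With median-ratio scaling, the median went from 0.20 to 0.39 for the other feedback inhibitors, from 0.17 to 0.35 for the upstream receptors and from -0.36 to -0.15 for the mRNA decay list. Over the settings run, LIF ranged from 2.73 to 3.52, IL6 from 1.39 to 2.92, CXCL2 from 1.23 to 1.88, NFKBIA from 1.39 to 1.59 and CXCL3 from -1.82 to -0.71 on the log2 scale. Among all genes compared, 2340 were called higher and 3492 lower, against 3855 and 6397 at a 1.5-fold threshold and 976 and 1241 at a 4-fold threshold. The excess of lower calls nearly vanished with scaling, at 2786 higher and 2885 lower with median-ratio scaling and 2803 and 2902 with quantile normalization. No paired analysis was possible because each group is given as 1 mean, and for the same reason leaving out each replicate and the replicate block were not run.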
